A study of Mus musculus with 4 samples.

Results

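The genes described here carry out the first steps of secretion: they bring new proteins into the endoplasmic reticulum (ER), trim their signal peptides and attach N-linked sugar chains. The members were 50 genes, named by symbol, and all 50 were found among the 14519 genes of the deposited table. RNA was measured in mouse colonic epithelium, in cells sorted by a Reg4-dsRed reporter (Reg4+ DCS cells, the deep crypt secretory cells that lie between stem cells and make mucus) and in cells sorted by an Lgr5-GFP reporter (Lgr5+ cells, the stem cells of the crypt base). Each population had 2 libraries, made by CEL-seq, in which RNA is amplified linearly and sequenced from its 3′ end, and the sort and library preparation were done 2 times. The sources used here give no strain, age or number of mice, no further alleles and no word on pooling. Cells were selected by 2 reporter genes, so that any other cell in which a reporter is active could also be collected. Values are RPM, the reads of a gene per 1000000 reads of its library, and CEL-seq values do not scale with gene length.

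Proteins bound for secretion carry a signal sequence, which the signal recognition particle (SRP) binds as it leaves the ribosome and brings to the SRP receptor on the ER. The chain then passes through the Sec61 channel, signal peptidase cuts off the signal, and oligosaccharyltransferase moves a preassembled sugar chain from the lipid dolichol onto asparagine residues. That sugar chain is built one sugar at a time by the Alg enzymes, from mannose and glucose donors, and its glucose residues are trimmed once it is on the protein. Goblet-type cells secrete large mucins that pass through all of these steps.

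The sorted populations carried the markers of their labels. All 9 goblet and DCS markers were higher in Reg4+ DCS cells, Reg4 among them. All 9 crypt base stem cell markers were higher in Lgr5+ cells, Lgr5 among them. Reg4 and Lgr5 were the targets of the sort, so these 2 check the sort alone. Lgr5, Ascl2, Smoc2, Znrf3 and Nkd1 reached 5 RPM, the level needed for testing, in the Lgr5+ libraries alone. Depth, worked out from the RPM worth of 1 read, was 5205723 and 7955340 reads in the Lgr5+ libraries. The values of a Reg4+ DCS library behaved as the average of 2 parts scaled apart from each other, which held 1890960 to 5523304 reads each. Genes above 0 numbered 12874 in each Reg4+ DCS library, the same count in both, and 14209 and 14211 in the Lgr5+ libraries. Whether a 0 in the Reg4+ DCS libraries stands for absent RNA or for a step of the processing was not tested. The 9 goblet and DCS markers summed to 186955 and 119162 RPM in Reg4+ DCS and to 5685 and 1956 RPM in Lgr5+ libraries, and on the RPM scale a large share of reads in a few genes lowers all others. The median log2 fold change of the 10183 genes tested, Reg4+ DCS minus Lgr5+, was −0.47 on the RPM scale and 0.02 with median-of-ratios scaling, which sets a typical gene equal between libraries. The part of the goblet and DCS markers in the median of −0.47 was not tested. Differences below are on the RPM scale unless said otherwise. Summed markers of other cells were also lower in Reg4+ DCS cells, though not every marker was. The sum of 7 tuft cell markers was 2.30 and 1.98 RPM in Reg4+ DCS and 878 and 253 RPM in Lgr5+ libraries, with Pou2f3, Gnat3, Ptgs1 and Rgs13 at 0 in both Reg4+ DCS libraries. The sum of 7 absorptive cell markers was 108 and 51.6 RPM against 847 and 199 RPM. Of the 6 tested, 3 were higher in Lgr5+ cells at a limma adjusted p under 0.05, against 26.9% of all genes tested. Of 9 plasma cell markers, a cell type rich in ER, 4 were in the table. Their sum was 57.2 and 64.6 RPM against 134 and 154 RPM, nearly all of it Sdc1, a surface proteoglycan that epithelial cells also carry. Igj, the joining chain of secreted antibodies, and Cd79a were at 0 in both Reg4+ DCS libraries. The remaining one, Derl3, stood at 3.58 and 0.985 RPM against 1.34 and 2.39 RPM. Its values overlapped, with the higher mean in Reg4+ DCS cells, and it was not tested. The sum of 6 leukocyte markers was 0.0905 and 0.166 RPM against 45.5 and 11.8 RPM. Of these 6, 5 were at 0 in both Reg4+ DCS libraries, Ptprc among them. Most of the Lgr5+ sum was Ptprc alone, at 40.1 and 9.55 RPM, and each other leukocyte marker stood at 2.11 RPM or less. The sum of 8 enteroendocrine markers was 18.6 and 26.6 RPM against 76.5 and 37.1 RPM. Of the 4 tested, 1, Chga, was higher in Lgr5+ cells at that threshold, and the groups of Chgb and Gcg overlapped. The part of these other cells in the results below was not tested, and in sorted bulk RNA more cells of a type and more RNA per cell cannot be told apart.

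Genes of protein import and of the enzyme that attaches the sugar chain made up most of the members that were higher in Reg4+ DCS cells. Among import, signal peptidase and oligosaccharyltransferase genes 17 of 32 were called, and among genes of sugar assembly, mannose supply and trimming 2 of 16. A gene was tested if it had at least 5 RPM in at least 2 libraries, and it was called at a limma adjusted p under 0.05. Of 48 members tested, 19 were called higher in Reg4+ DCS cells, where 7.18% of all genes tested were called in that direction. Higher in Lgr5+ cells was 1 member, where the share over all genes was 26.9%. Both Reg4+ DCS libraries lay above both Lgr5+ libraries for 33 members (16.1% of all genes tested), and the order was the opposite for 3 members (56.2%). The median log2 fold change of the 48 members was 0.63, and 46 of them lay above the median of all genes. Members were more abundant than most genes, with a median mean level of 107 RPM against 28.6 RPM over all genes tested. Among all genes with a mean of at least 50 RPM, 12.3% were called up in Reg4+ DCS cells and 24.1% up in Lgr5+ cells. Summed over the 50 members, the level was 10097 and 9102 RPM in Reg4+ DCS and 5353 and 5396 RPM in Lgr5+ libraries. The count of 19 fell to 9 without Reg4+ DCS replicate 1, and with median-of-ratios scaling it rose to 34, where 15.6% of all genes were called in that direction, with 0 members (12.7% of all genes) higher in Lgr5+ cells. The 7 members called with any 1 library left out were Srpr, Sec61a1, Tram1, Spcs3, Ddost, Ostc and Krtcap2.

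**Figure D1:**
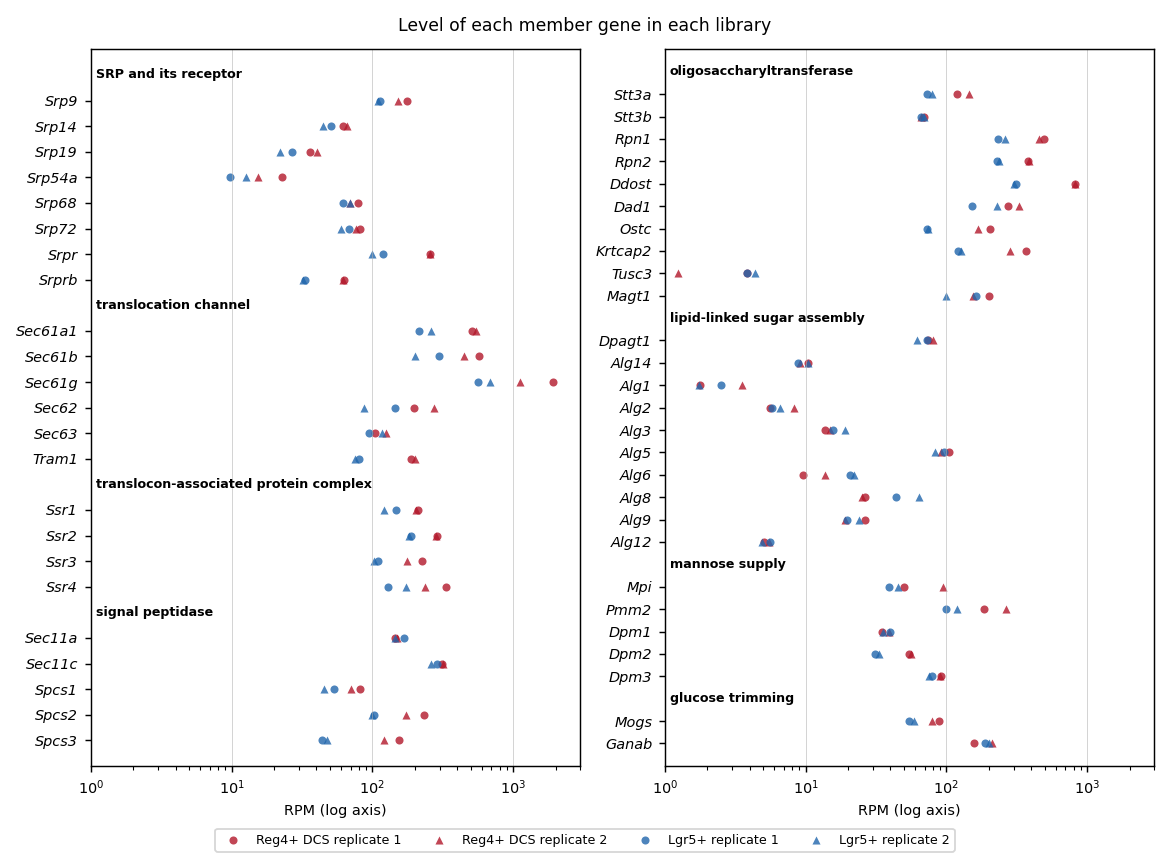
Level of each of the 50 members in each library, in RPM on a log axis, ordered by role. Circles are replicate 1 and triangles replicate 2, red for Reg4+ DCS and blue for Lgr5+ libraries. Red symbols lie right of blue ones for most import and oligosaccharyltransferase genes, and the symbols mix for most genes of lipid-linked sugar assembly.

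The receptor for SRP was higher in Reg4+ DCS cells, and the particle itself was not called. Srpr, the receptor subunit that binds the particle (ENSMUSG00000032042, GRCm38 chromosome 9, 35200175 to 35247973, plus strand), stood at 255.6 and 255.9 RPM in Reg4+ DCS and 119.9 and 100.1 RPM in Lgr5+ libraries. The groups did not overlap, and the Reg4+ DCS libraries were nearly equal. The means were 2.33-fold apart (log2 change 1.22, SE 0.22, limma adjusted p = 0.00509). Srprb, the subunit that anchors the receptor in the membrane, stood at 63.2 and 61.9 RPM against 33.4 and 32.2 RPM, 1.91-fold apart (adjusted p = 0.0206), a call that was lost whichever 1 library was left out. The 6 measured proteins of the particle, Srp9, Srp14, Srp19, Srp54a, Srp68 and Srp72, had log2 fold changes from 0.17 (Srp68) to 0.70 (Srp54a). Of the 6, limma and edgeR called 0, and 2 had an unadjusted p under 0.05. Srp9, which with Srp14 binds the Alu end of the particle's RNA, came nearest, at 177 and 151 RPM against 113 and 110 RPM (adjusted p = 0.0843). Srp54a, the subunit that grips the signal sequence, stood at 23.0 and 15.4 RPM against 9.80 and 12.7 RPM. Its close copies Srp54b and Srp54c were not matched to entries here, and the sources do not say how reads shared by such copies were counted, so this value is uncertain. In annotated transcripts 0 other genes held a copy of its last 300 bases, at 95% identity or more over at least 100 bases. With median-of-ratios scaling 7 of the 8 genes of particle and receptor were called higher in Reg4+ DCS cells, all but Srp68. The share over all genes with that scaling was 15.6%.

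Of the 6 genes of the translocation channel and its partners, 5 were higher in Reg4+ DCS cells. The share over all genes tested was 7.18%. Tram1, a membrane protein that helps chains enter the channel (ENSMUSG00000025935, chromosome 1, 13564698 to 13589910, minus strand), stood at 187 and 201 RPM in Reg4+ DCS and 80.7 and 75.8 RPM in Lgr5+ libraries. Replicates lay close together and the groups were far apart, by 2.48-fold (log2 change 1.30, SE 0.22, adjusted p = 0.00353). Sec61g, a small subunit that clamps the channel (ENSMUSG00000078974, chromosome 11, 16500530 to 16508484, minus strand), stood at 1905 and 1120 RPM against 561 and 689 RPM. The groups did not overlap, though the Reg4+ DCS libraries themselves differed. Sec61g was 2.42-fold higher (log2 fold change 1.23, SE 0.30, adjusted p = 0.0177; 1.79 to 3.05-fold without 1 library). Sec61a1, which forms the pore, was 2.24-fold higher (adjusted p = 0.00663), with the antisense gene Gm44170 over its 3′ end, and Sec61b, the other small subunit, 2.04-fold higher (adjusted p = 0.0201). Sec62, which serves chains that enter after their synthesis, was 2.03-fold higher (adjusted p = 0.0304). Sec63, its partner and an anchor for the chaperone BiP, stood at 105 and 125 RPM against 94.5 and 117 RPM, with overlapping groups (adjusted p = 0.705). For Sec63 the 95% interval of the log2 fold change, −0.42 to 0.67, left room for a change of either sign. The calls of Sec61b, Sec61g and Sec62 were lost without Reg4+ DCS replicate 1, those of Sec61b and Sec62 also without Lgr5+ replicate 2, and that of Sec62 also without Reg4+ DCS replicate 2, a trend in the fit (adjusted p = 0.0503) or a low-value filter (0.0588).

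The translocon-associated protein (TRAP) complex sits at the channel and aids the entry of some signal sequences. All 4 of its subunits had both Reg4+ DCS libraries above both Lgr5+ libraries, an order held by 16.1% of all genes tested. Ssr4, the delta subunit (ENSMUSG00000002014, chromosome X, 73787028 to 73790830, plus strand), stood at 331 and 238 RPM against 128 and 172 RPM, 1.90-fold apart (log2 change 0.91, SE 0.26, adjusted p = 0.0304). Ssr3, the gamma subunit, was 1.89-fold higher (adjusted p = 0.0197). Ssr2, the beta subunit (ENSMUSG00000041355, chromosome 3, 88575876 to 88588419, plus strand), stood at 287 and 282 RPM against 187 and 181 RPM. It had narrow spreads and missed the threshold (1.55-fold, adjusted p = 0.0510), as did Ssr1, the alpha subunit (1.55-fold, adjusted p = 0.0582). All 4 were called with median-of-ratios scaling, where 15.6% of all genes were called up in Reg4+ DCS cells. The calls of Ssr3 and Ssr4 were lost without Reg4+ DCS replicate 1, the call of Ssr3 also without Lgr5+ replicate 2 and that of Ssr4 also without Lgr5+ replicate 1, without a trend in the fit (adjusted p = 0.0529) or without a low-value filter (0.0515).

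Within signal peptidase, 2 accessory subunits were higher in Reg4+ DCS cells and the catalytic ones were not called on the RPM scale. In that direction 7.18% of all genes tested were called. Spcs3, an accessory subunit (ENSMUSG00000054408, chromosome 8, 54520433 to 54529998, minus strand), stood at 154 and 120 RPM in Reg4+ DCS and 43.8 and 47.4 RPM in Lgr5+ libraries. It had the highest fold of the 48 members tested, 3.0 (log2 fold change 1.56, SE 0.24, adjusted p = 0.00247), and the groups were far apart. Spcs2 was 2.01-fold higher (adjusted p = 0.0155, lost without Reg4+ DCS replicate 1), and Spcs1, at 82.3 and 70.9 RPM against 53.8 and 45.0 RPM, was not called (adjusted p = 0.0749). The catalytic subunit exists in 2 forms, encoded by Sec11a and Sec11c. Sec11a (ENSMUSG00000025724, chromosome 7, 80904889 to 80947780, minus strand) stood at 145 and 150 RPM against 168 and 145 RPM (adjusted p = 0.804). Sec11c (ENSMUSG00000024516) stood at 313 and 317 RPM against 290 and 259 RPM (adjusted p = 0.487). The groups overlapped for Sec11a and were apart by little for Sec11c. Neither was called by limma or edgeR on the RPM scale, and with median-of-ratios scaling Sec11c was called higher in Reg4+ DCS cells (adjusted p = 0.0431). On the RPM scale the 95% intervals of the log2 fold changes, −0.58 to 0.42 and −0.29 to 0.69, held no rise as large as that of Spcs3. The log2 ratio of Sec11c to Sec11a within a library was 1.10 and 1.07 in Reg4+ DCS and 0.78 and 0.84 in Lgr5+ libraries (exact permutation test, two-sided p = 0.333, the smallest that 2 against 2 libraries can give). An exon of Nmb on the same strand lies over the 3′ end of Sec11a, and reads of the overlap could have been counted for either gene.

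**Figure D2:**
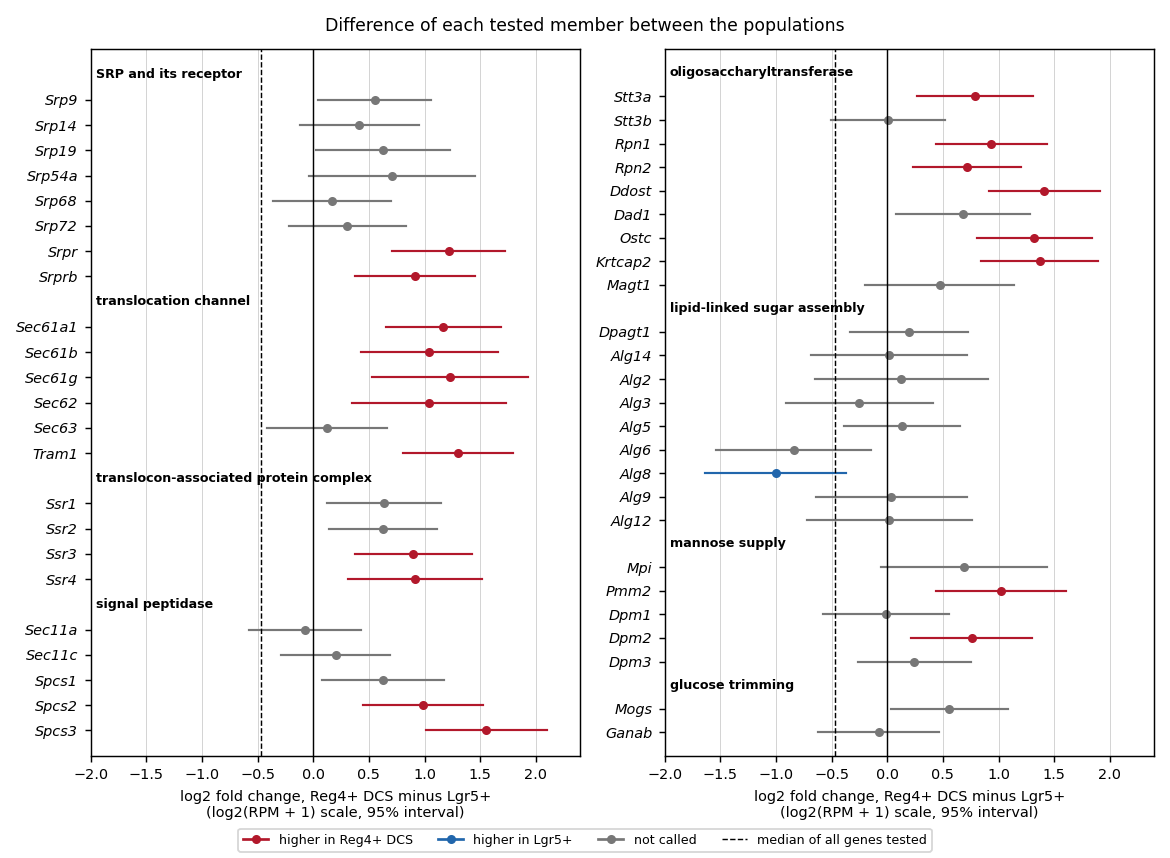
Log2 fold change (Reg4+ DCS over Lgr5+ cells, from log2(RPM + 1)) of each of the 48 tested members with its 95% interval from limma, red where called higher in Reg4+ DCS, blue where called higher in Lgr5+ cells and grey where not called. The dashed line is the median of all genes tested, −0.47, and 46 of the 48 members lie to its right.

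Oligosaccharyltransferase exists in 2 forms that share Rpn1, Rpn2, Ddost, Dad1 and further small subunits. One form has the catalytic subunit Stt3a with Ostc and Krtcap2 and works at the channel while the chain is made. The other has Stt3b with Magt1 or Tusc3 and reaches sites that the first form skipped. All 3 subunits particular to the Stt3a form were higher in Reg4+ DCS cells, where the share over all genes tested was 7.18%. Of the 2 tested subunits of the Stt3b form limma and edgeR called 0, and 0 had an unadjusted p under 0.05. Stt3a (ENSMUSG00000032116, chromosome 9, 36729344 to 36767679, minus strand) stood at 119 and 145 RPM in Reg4+ DCS and 72.8 and 78.8 RPM in Lgr5+ libraries, 1.74-fold apart (log2 change 0.79, SE 0.23, adjusted p = 0.0309), a call lost whichever 1 library was left out and without a trend in the fit. Krtcap2, a small subunit that ties the enzyme to the channel, stood at 367 and 284 RPM against 121 and 128 RPM (2.61-fold, adjusted p = 0.00372). Ostc, its partner in that contact, stood at 204 and 168 RPM against 73.2 and 73.8 RPM (2.53-fold, adjusted p = 0.00388). Groups were apart for all 3 genes.

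Stt3b (ENSMUSG00000032437, chromosome 9, 115242581 to 115310421, minus strand) stood at 69.3 and 66.5 RPM in Reg4+ DCS and 65.5 and 69.8 RPM in Lgr5+ libraries. The 4 values overlapped, with a log2 fold change of 0.01 (95% interval −0.51 to 0.52, adjusted p = 0.985). Magt1, an oxidoreductase subunit, stood at 202 and 153 RPM against 163 and 99.2 RPM and also overlapped (adjusted p = 0.235; called higher in Reg4+ DCS cells with median-of-ratios scaling). Tusc3, the alternative to Magt1, was near the floor of detection, at 3.86 and 1.24 RPM against 3.84 and 4.40 RPM, from 7 to 35 reads per library, and it was not tested. Leaving out 1 library moved its fold of 0.619 to between 0.301 and 0.938. The log2 ratio of Stt3a to Stt3b within a library was 0.78 and 1.11 in Reg4+ DCS and 0.15 and 0.17 in Lgr5+ libraries. The ratios did not overlap and differed by 0.78 on average, with the smallest p that the exact permutation test can give, 0.333. The log2 ratio of Magt1 to Tusc3 was 5.38 and 6.11 against 5.08 and 4.21, and rested on the few reads of Tusc3.

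Of the 4 shared subunits among the members 3 were higher in Reg4+ DCS cells, against 7.18% of all genes tested. Ddost, the subunit that holds the enzyme together at the membrane (ENSMUSG00000028757, chromosome 4, 138304730 to 138312628, plus strand), stood at 813 and 825 RPM against 312 and 303 RPM. Replicates differed far less than the groups, which were 2.66-fold apart (log2 change 1.41, SE 0.22, adjusted p = 0.00247). Rpn1, a scaffold subunit at the channel, was 1.92-fold higher (adjusted p = 0.0138, lost without Reg4+ DCS replicate 1) and Rpn2 1.65-fold higher (adjusted p = 0.0327, lost whichever 1 library was left out and without a trend). Dad1, a small subunit needed for the stability of the enzyme, stood at 272 and 329 RPM against 153 and 228 RPM (adjusted p = 0.0766). Further small subunits of the enzyme that are not members, Ost4 (1.49-fold, adjusted p = 0.206) and Tmem258 (1.71-fold, adjusted p = 0.0574), were not called.

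**Figure D3:**
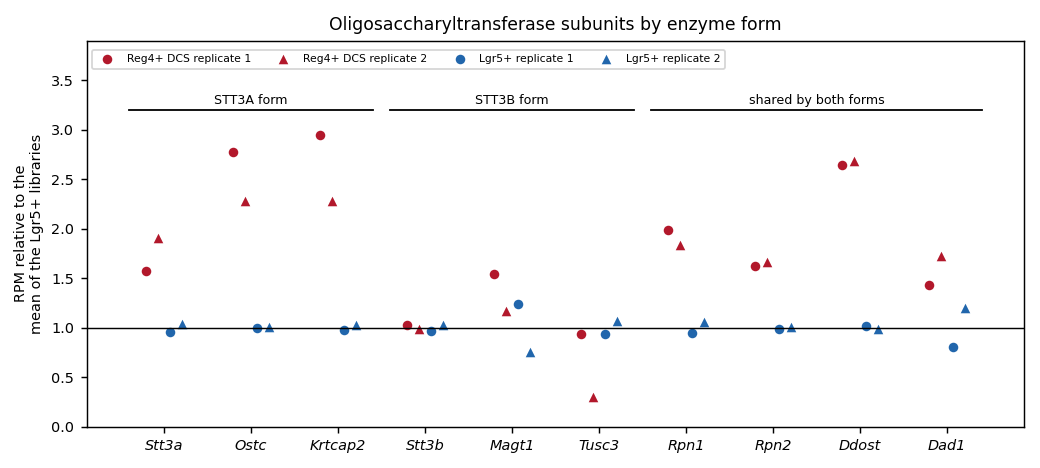
RPM of each oligosaccharyltransferase subunit divided by the mean of the 2 Lgr5+ libraries (the line at 1), by library and by enzyme form. Both Reg4+ DCS libraries lie above both Lgr5+ libraries for the 3 subunits of the Stt3a form and for the 4 shared subunits plotted, and the libraries mix for Stt3b and Magt1.

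The enzymes that assemble the sugar chain on dolichol were not called higher in Reg4+ DCS cells. Of 9 tested, 0 were called higher in Reg4+ DCS cells by limma or by edgeR, and 0 had an unadjusted p under 0.05 in that direction. Higher in Lgr5+ cells was 1. Over all genes tested 7.18% were called up in Reg4+ DCS and 26.9% up in Lgr5+ cells, so counts of 0 and 1 do not set a list of 9 apart. The median log2 fold change of these 9 was 0.02. These are genes of low level, with a median of 16.5 RPM, and a median SE of 0.29 against 0.23 for the 32 tested members of import, signal peptidase and oligosaccharyltransferase. Alg8, a glucosyltransferase that adds the second glucose (ENSMUSG00000035704, chromosome 7, 97371606 to 97392185, plus strand), stood at 26.3 and 25.2 RPM in Reg4+ DCS and 43.6 and 63.4 RPM in Lgr5+ libraries. The groups were apart, 2.08-fold higher in Lgr5+ cells (log2 fold change −1.002, SE 0.28, adjusted p = 0.0259). The call was lost with median-of-ratios scaling (adjusted p = 0.209), without either Reg4+ DCS library (0.0930 and 0.0801) and without Lgr5+ replicate 2 (0.156). Alg6, which adds the first glucose, stood at 9.58 and 13.7 RPM against 20.7 and 22.0 RPM (log2 fold change −0.84, adjusted p = 0.0624). Alg5, which makes the glucose donor for both (ENSMUSG00000036632, chromosome 3, 54735539 to 54751318, plus strand), stood at 105 and 91.9 RPM against 96.2 and 83.2 RPM, with overlapping groups (log2 fold change 0.13, 95% interval −0.39 to 0.65, adjusted p = 0.679).

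Dpagt1, which starts the chain, stood at 73.5 and 80.0 RPM in Reg4+ DCS and 73.0 and 61.3 RPM in Lgr5+ libraries (adjusted p = 0.534). It was the 1 gene of these 9 called higher in Reg4+ DCS cells with median-of-ratios scaling. The next enzymes of the chain, Alg14, Alg2, Alg3, Alg9 and Alg12, had log2 fold changes from −0.25 (Alg3) to 0.13 (Alg2), and their groups overlapped except for Alg3, over whose 3′ end an exon of Vwa5b2 lies on the other strand. Alg1, the first mannosyltransferase, was not tested, at 1.79 and 3.51 RPM against 2.50 and 1.76 RPM, and an exon of Eef2kmt on the other strand lies over its 3′ end. As the median of all genes was −0.47, a log2 fold change near 0 on the RPM scale lies above that of a typical gene, and 7 of the 9 did so. Abundance and fold went together across the 48 members (Spearman's rho 0.58 across genes, which share the same 4 libraries). Members with a mean of at least 50 RPM were also counted. Of import, signal peptidase and oligosaccharyltransferase genes among them, 16 of 29 (55.2%) were called higher in Reg4+ DCS cells. So was 1 of 7 genes of sugar assembly, mannose supply and trimming (14.3%), where the share over all genes of that level was 12.3%. Of the 7, only Dpagt1 and Alg5 are enzymes of sugar assembly, so this count says little about that step.

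**Figure D4:**
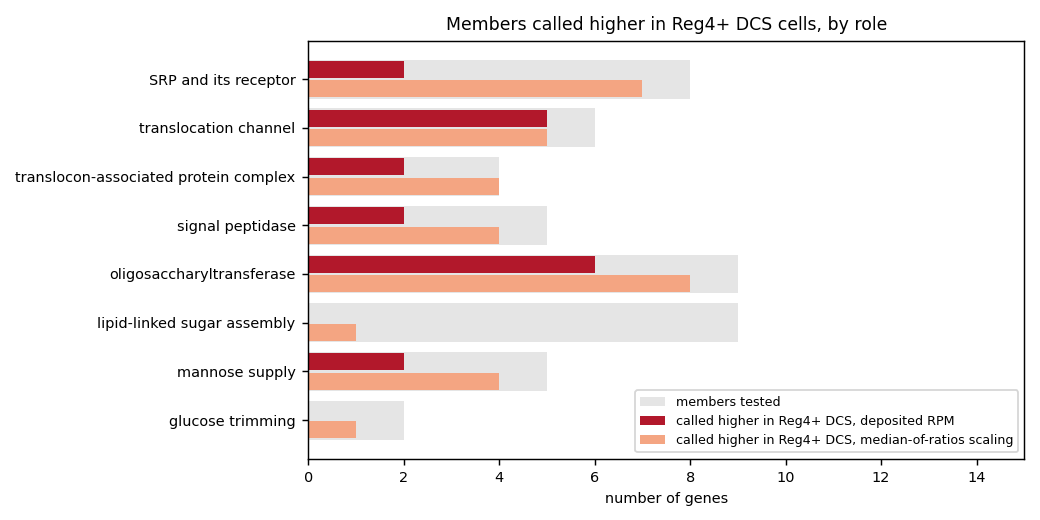
Number of members tested (grey) and called higher in Reg4+ DCS cells on the deposited RPM scale (red) and with median-of-ratios scaling (orange), by role. Lipid-linked sugar assembly has 0 of 9 on the first scale and 1 of 9 on the second, and the translocation channel has 5 of 6 on both.

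Among the genes that supply mannose, 2 of 5 were higher in Reg4+ DCS cells, where 7.18% of all genes tested were called in that direction. Pmm2, a mutase that makes mannose-1-phosphate (ENSMUSG00000022711, chromosome 16, 8637674 to 8662467, plus strand), stood at 186 and 266 RPM against 100 and 119 RPM. The groups were apart, by 2.07-fold (log2 fold change 1.02, SE 0.25, adjusted p = 0.0177; lost without Reg4+ DCS replicate 2). Mpi, which feeds that step from fructose-6-phosphate, stood at 49.9 and 94.5 RPM against 39.4 and 45.3 RPM, with a wide spread (adjusted p = 0.130). Of the enzyme that loads mannose onto dolichol, the regulatory subunit Dpm2 was higher, at 53.8 and 56.0 RPM against 31.1 and 33.1 RPM (1.71-fold, adjusted p = 0.0407), a call lost whichever 1 library was left out and without a trend. The catalytic subunit Dpm1 stood at 35.1 and 39.1 RPM against 39.6 and 35.3 RPM (adjusted p = 0.970), and the anchor Dpm3 at 92.0 and 90.2 RPM against 78.8 and 74.9 RPM (adjusted p = 0.406).

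Of the glucosidases that trim the transferred chain, limma and edgeR called 0 of 2, and 1, Mogs, had an unadjusted p under 0.05. Mogs, which removes the first glucose (ENSMUSG00000030036, chromosome 6, 83115496 to 83118898, plus strand), stood at 88.9 and 79.1 RPM in Reg4+ DCS and 54.6 and 59.0 RPM in Lgr5+ libraries (1.48-fold, adjusted p = 0.0898), and it was called with median-of-ratios scaling (adjusted p = 0.0117). Ganab, the catalytic subunit that removes the next 2 (ENSMUSG00000071650, chromosome 19, 8898071 to 8916672, plus strand), stood at 158 and 211 RPM against 187 and 200 RPM. The groups of Ganab overlapped (adjusted p = 0.814).

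Further import and glycosylation genes were called in both directions. Of 26 tested, limma called 4 up in Reg4+ DCS cells and 3 up in Lgr5+ cells, with a median log2 fold change of 0.01. Over all genes tested the shares were 7.18% and 26.9%, so calls up in Lgr5+ cells were rarer in this list than over all genes. Gmppb, which makes GDP-mannose from the product of Pmm2, stood at 148 and 141 RPM against 30.9 and 30.4 RPM, 4.72-fold apart (adjusted p = 0.000474). Its regulatory partner Gmppa stood at 115 and 168 RPM against 78.4 and 105 RPM and was not called. Calr, a lectin chaperone that binds chains with 1 glucose left, was 2.38-fold higher (adjusted p = 0.00590), and Uggt1, which puts that glucose back on misfolded proteins, 1.76-fold higher (adjusted p = 0.0246). The call of Calr was lost without Reg4+ DCS replicate 1, and that of Uggt1 on leaving out any library other than Lgr5+ replicate 2. Higher in Lgr5+ cells were Alg13, the partner of Alg14 (5.03 and 6.90 RPM against 19.4 and 13.1 RPM, adjusted p = 0.0219), Sec61a2, the alternative channel pore (6.26 and 8.94 RPM against 16.1 and 15.7 RPM, adjusted p = 0.0415), and the mannosidase Man1a2 (1.78-fold, adjusted p = 0.0310). These 3 calls were lost with median-of-ratios scaling (adjusted p = 0.0682, 0.183 and 0.328) and without Reg4+ DCS replicate 1 or Lgr5+ replicate 1. The calls of Sec61a2 and Man1a2 were also lost without Lgr5+ replicate 2, and that of Man1a2 without Reg4+ DCS replicate 2.

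Genes that insert membrane proteins by routes other than SRP were not called higher in Reg4+ DCS cells. Of 16 tested genes of the ER membrane complex and the tail-anchor route, limma and edgeR called 0 higher in Reg4+ DCS cells. At an unadjusted p under 0.05 the count was also 0. With 7.18% of all genes tested called in that direction, 0 of 16 does not set this list apart. Higher in Lgr5+ cells were 2, where the share over all genes was 26.9%. These were Emc8, a subunit of the membrane complex, at 42.7 and 34.2 RPM against 61.1 and 77.6 RPM (adjusted p = 0.0385), and Sgta, a cytosolic factor that hands over tail-anchored proteins, at 86.2 and 99.5 RPM against 147 and 172 RPM (adjusted p = 0.0323). Both calls were lost with median-of-ratios scaling (adjusted p = 0.402 and 0.393) and on leaving out any library other than Lgr5+ replicate 1, and the median of the list was −0.02.

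Regulators of the unfolded protein response, the signalling that adjusts ER capacity, were more abundant in Reg4+ DCS cells, with 8 of 10 tested called. Limma and edgeR called 0 higher in Lgr5+ cells (0 at an unadjusted p under 0.05). Over all genes tested the shares were 7.18% and 26.9%. Ern2, the epithelial form of the sensor that splices Xbp1, stood at 525 and 911 RPM against 146 and 117 RPM, 5.47-fold apart (adjusted p = 0.00106). Creb3l4, a membrane-bound transcription factor, was 7.0-fold higher (5.47 to 9.72-fold without 1 library; adjusted p = 0.000687). Bhlha15, a factor of secretory cell maturation, stood at 33.2 and 17.2 RPM against 2.11 and 0.880 RPM. The means were 16.9-fold apart (11.5 to 28.7-fold without 1 library, adjusted p = 0.00111). Bhlha15 passed the filter of 5 RPM through the Reg4+ DCS libraries alone. Its fold rests on Lgr5+ values near the floor, so its call adds little to the count of 8. The count of 8 was 4 without either Reg4+ DCS library.

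The start regions of the members were read for letters known from genes of this response, since Xbp1 and Atf6 act through such elements. RefSeq promoter windows on GRCm38.p6 were given for 39 of the 50 members, each of 250 bases before and 50 after the start. None was given for Srp19, Srp68, Sec61a1, Tram1, Ssr2, Sec11c, Spcs3, Ostc, Tusc3, Dpagt1 and Alg2. Of these, Sec61a1, Tram1, Spcs3 and Ostc were called higher in Reg4+ DCS cells, so the search missed some of the firmest calls. For 35 of the 39, the letters after the start were found in an annotated transcript of the gene. The ER stress element (ERSE) was searched on both strands as CCAAT, 9 other letters and CCACG. It occurred in 1 of the 39 windows (2.56%) and in 0.151% of the 10595 windows of genes in the table. The 1 window was that of Alg12, at 5.09 and 5.53 RPM in Reg4+ DCS and 5.57 and 4.90 RPM in Lgr5+ libraries, a member whose groups overlapped. With 1 mismatch allowed in the last block, a form chosen after the exact matches were seen, the windows of Rpn2 and Sec61g also matched, so that 3 of 39 (7.69%) did, against 1.39% of the windows of genes in the table. ERSE-II, searched as ATTGG, 1 other letter and CCACG, occurred in 0 of the 39 first windows. It occurred once at the second start of Krtcap2, where it began at base 18 of the transcript. The core of the unfolded protein response element, TGACG followed directly by TGG, occurred in 0 of 39 windows and in 0.850% of the windows of genes in the table. CCAAT by itself, which also counts those within ERSE matches, was in 51.3% of members' windows and 38.4% of those of genes in the table, and CCACG in 53.8% and 46.6%. These are matches of letters in short windows, not sites of binding. The matches are shown because they set the members that hold the letters beside their values, with the matched blocks in capitals, 5′ to 3′ on the strand of the gene.
Alg12, chr15:88819500-88819558, minus strand: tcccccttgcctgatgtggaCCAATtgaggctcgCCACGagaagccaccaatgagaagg
Rpn2, chr2:157278940-157278998, plus strand, 1 mismatch: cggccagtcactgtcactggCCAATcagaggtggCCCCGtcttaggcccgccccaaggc
Sec61g, chr11:16508690-16508734, minus strand, 1 mismatch: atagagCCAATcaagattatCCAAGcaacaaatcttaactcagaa
Krtcap2, chr3:89246481-89246509, plus strand: gggacacggATTGGACCACGgacggggcg

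A pair of members lay back to back. Alg2, on the minus strand of chromosome 4, starts at 47474333 and Sec61b, on the plus strand, at 47474658 in GENCODE M21, with 324 bases between them. Sec61b stood at 571 and 447 RPM in Reg4+ DCS and 296 and 202 RPM in Lgr5+ libraries (2.04-fold, adjusted p = 0.0201). Alg2, the mannosyltransferase of the next steps after Alg1, stood at 5.56 and 8.25 RPM against 5.76 and 6.54 RPM, with overlapping groups (log2 fold change 0.13, SE 0.34, 95% interval −0.65 to 0.90, adjusted p = 0.792). The interval of Alg2 was wide, and the difference between the folds of the 2 genes was not tested. Stretches like the 3′ end of Sec61b occur in 3 other annotated genes, Gm10320, Gm33666 and Gm5870, to which reads could have been lost. The 250 bases before the RefSeq start of Sec61b, shown because they fill most of the gap that the pair shares, held none of the 5 motifs.
Sec61b, chr4:47474411-47474660, plus strand: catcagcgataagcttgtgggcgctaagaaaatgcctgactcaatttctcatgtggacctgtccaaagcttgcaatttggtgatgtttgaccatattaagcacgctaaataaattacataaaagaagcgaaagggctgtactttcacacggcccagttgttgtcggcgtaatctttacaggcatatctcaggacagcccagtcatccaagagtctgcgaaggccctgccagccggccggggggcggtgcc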

How the data were processed

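The authors deposited 1 table of RPM for 14519 genes in 4 columns, each summing to 1000000. Total RNA of sorted cells went into CEL-seq libraries read as 50 bp paired ends, per the labels' protocols, with BWA 0.6.2-r126 and mm10 named in the submitters' processing notes. The sources used here do not give the counting step, annotation or use of molecular identifiers, so RPM may include amplification copies. In the Lgr5+ columns 100% of values were whole reads within 0.01 reads. The Reg4+ DCS columns were decoded as means of 2 parts, uniquely for 99.8% and 98.6% of genes.

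Tests used limma 3.58.1 in R 4.3.3 (trend) on log2(RPM + 1), with group as the only term, over the 10183 genes with at least 5 RPM in at least 2 libraries, with Benjamini-Hochberg adjustment over all of them. The fit was tested on simulated data. Printed folds divide one group's mean RPM by the other's, and log2 values understate changes of low genes. With 2 libraries a group, p-values rest on a spread pooled across genes. Alternatives were 2 pseudocounts, 2 filters, 2 scalings, no trend, a replicate block, leaving out each library and, added after the data were seen, edgeR 4.0.16 on recovered reads, where ambiguous genes took the reads implied by their mean RPM. The 50 members and all lists were chosen with earlier results of these data known. Values per library are given, by rule, for the members of each role with the largest absolute fold and the highest mean, for members higher in Lgr5+ cells and for 3 pairs of alternative subunits, and, chosen after their values were seen, for further members. From each list of other pathway genes the 3 calls with the largest fold in each direction were taken. Gmppa and the back-to-back pair were chosen after seeing values. All 50 members matched GENCODE M21 (GRCm38, the assembly of mm10) by symbol and chromosome. Copies of the last 300 bases were sought with blastn 2.17.0. A further tuft cell marker is not reported here and was left out of that list's sum.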

Additional observations from a re-analysis of the deposited data

How the results depend on the processing

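With median-of-ratios and TMM scaling the members called higher in Reg4+ DCS cells were 34 and 34, all 19 of the RPM scale among them, those higher in Lgr5+ cells 0 and 0, and the members' median log2 fold change 1.13 and 1.11. The genes called overall were 1591 and 1549 higher in Reg4+ DCS and 1297 and 1317 higher in Lgr5+ cells. Further import and glycosylation genes gave 9 and 8 higher in Reg4+ DCS and 0 and 0 in Lgr5+ cells, and membrane insertion genes 0 and 0 in Lgr5+ cells. The members' median was 0.57 with a pseudocount of 5 and 0.66 with edgeR. Without a low-value filter 1 further import gene and 1 membrane insertion gene were higher in Lgr5+ cells, and without a trend 0 of the latter. Members called up in Reg4+ DCS cells were 18 without the filter (Sec62 and Ssr4 lost, Ssr2 gained) and 14 without a trend (Dpm2, Rpn2, Sec62, Ssr4 and Stt3a lost).

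With the replicate number as a block, the test called 23 members up in Reg4+ DCS cells and 2 up in Lgr5+ cells (gained were Dad1, Mpi, Ssr1 and Ssr2, and Alg6 in Lgr5+ cells), and further import and glycosylation genes gave 7 and 5. Same-numbered libraries deviated together only loosely (correlation 0.21 over 2 pairs, across genes), and the labels do not say that a number marks a shared sort, so the pairing rests on the number alone.

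Leaving out 1 library gave 349 to 706 genes higher in Reg4+ DCS and 1060 to 2288 in Lgr5+ cells, 9 to 14 and 0 to 1 members, a member median of 0.57 to 0.64, 1 to 4 and 0 to 3 further import genes, 0 to 2 membrane insertion genes higher in Lgr5+ cells and 4 to 7 unfolded protein response regulators higher in Reg4+ DCS cells.

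Members whose log2 fold change took the other sign were uncalled where it did. With median-of-ratios and TMM scaling it was 0.43 and 0.41 for Ganab, 0.43 and 0.42 for Sec11a, 0.23 and 0.21 for Alg3 and 0.48 and 0.47 for Dpm1. With edgeR it was −0.0043 for Stt3b, −0.00099 for Alg12 and 0.024 for Dpm1. Without 1 library it ran from −0.29 to 0.13 for Ganab, −0.18 to 0.029 for Sec11a, −0.039 to 0.051 for Stt3b, −0.029 to 0.28 for Sec63, −0.10 to 0.12 for Alg14, −0.12 to 0.37 for Alg2, −0.19 to 0.26 for Alg9, −0.060 to 0.095 for Alg12 and −0.093 to 0.066 for Dpm1. The cause was not tested. Precision fell with level: the median SE was 0.23 over the 48 members tested and 0.29 over the genes of sugar assembly.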

Other observations

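The 2 parts within each Reg4+ DCS column give a further view of the members' spread, though the labels do not say what they were and they were not used as replicates. For the 48 members decoded in both columns, the median ratio of the higher to the lower part was 1.22 in replicate 1 and 1.13 in replicate 2. For 17 of the 17 called members that could be decoded, all 4 parts lay above both Lgr5+ libraries. The calls were made from the means of these same parts, so this count is no separate support for them. Ddost and Sec61g were not decoded in replicate 2. Spcs3 stood at 99.8 and 207 RPM in the parts of replicate 1 and 111 and 130 RPM in those of replicate 2. Sec61g stood at 1516 and 2295 RPM in the parts of replicate 1. Tusc3, the member with the largest ratio between parts in both replicates, stood at 5.61 and 2.12 RPM and at 1.66 and 0.818 RPM.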
